A study of Bos taurus with 10 samples.

Results

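The 7 genes HMGCS1, IDI1, FDFT1, SQLE, LSS, SREBF2 and INSIG1 of cholesterol synthesis and its control were followed in bovine fat. They were chosen by name from a deposited table of 12674 genes, and all 7 passed the filter on low counts, as did 12521 of the 12674. The set was labelled as covering synthesis and uptake. It holds 5 enzymes and 2 genes of sterol control, SREBF2 and INSIG1, and no uptake receptor. Uptake is therefore described here through other genes of the pathway.

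RNA was sequenced from intramuscular fat (marbling, the fat between muscle fibres) and from subcutaneous fat (the fat under the skin) of 5 adult Angus-cross heifers. Each depot gave 5 libraries, numbered 1 to 5, and libraries with the same number were taken as the same animal. All animals were adult females, and no treatment was named for either depot. The series asked what accompanies the later and slower growth of marbling.

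Cells build cholesterol from acetyl-CoA through the mevalonate pathway, in which HMG-CoA is made early, isoprenoid units follow, and squalene is then made, oxidised and folded into the sterol ring. When membrane cholesterol is low, the protein SCAP escorts the factor SREBP-2, made from SREBF2, out of the endoplasmic reticulum to be cut and sent to the nucleus, where it switches on these enzymes and genes of cholesterol uptake. INSIG1 holds SCAP back when sterols are plentiful and is itself a target of the SREBP factors. Fat cells store much unesterified cholesterol, and in adult mammals they take up a large part of it from lipoproteins.

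Library totals over the listed genes were 9392739 to 14836808 counts in intramuscular and 13776094 to 17685678 counts in subcutaneous fat. Each of the 7 genes had between 144 (SQLE) and 18437 (INSIG1) counts in every library, so counting error was small beside the spread between libraries. Levels are given as CPM, the counts of a gene scaled to a common library size with TMM factors. The labelled tissue was checked against marker lists. The 11 mature adipocyte genes with values summed to between 5778 and 19579 CPM in intramuscular fat and between 21725 and 27801 CPM in subcutaneous fat. Of these 11, 0 were higher in intramuscular fat past the threshold, 1 (FABP4) was lower without regard to the animal, and 4 (FABP4, RETSAT, LIPE and PNPLA2) were lower with the animal as a block. Their median log2 fold change was -0.81, or -0.88 with the block. ADIPOQ went the other way, at 0.20, or 0.21 with the block, and was higher in intramuscular fat in 4 animals. FABP4 weighed heavily in the sums, averaging 2496 CPM in intramuscular and 5952 CPM in subcutaneous fat. The 9 striated muscle genes with values, of 22 listed, summed to between 217 and 1234 CPM in intramuscular fat and between 4.58 and 7.69 CPM in subcutaneous fat. All 9 were higher in intramuscular fat past the threshold, and 5 of them had no count in any subcutaneous library. In these bulk samples, fewer cells of a type and less RNA per cell cannot be told apart.

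Levels of the 7 genes spread widely between animals. In both depots the libraries of animals 4 and 5 were the highest for HMGCS1, IDI1, SQLE and INSIG1. Within animals, HMGCS1, IDI1 and LSS had lower levels in intramuscular than in subcutaneous fat in all 5. FDFT1, SQLE and SREBF2 showed no direction shared by all 5 animals.

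**Figure D1:**
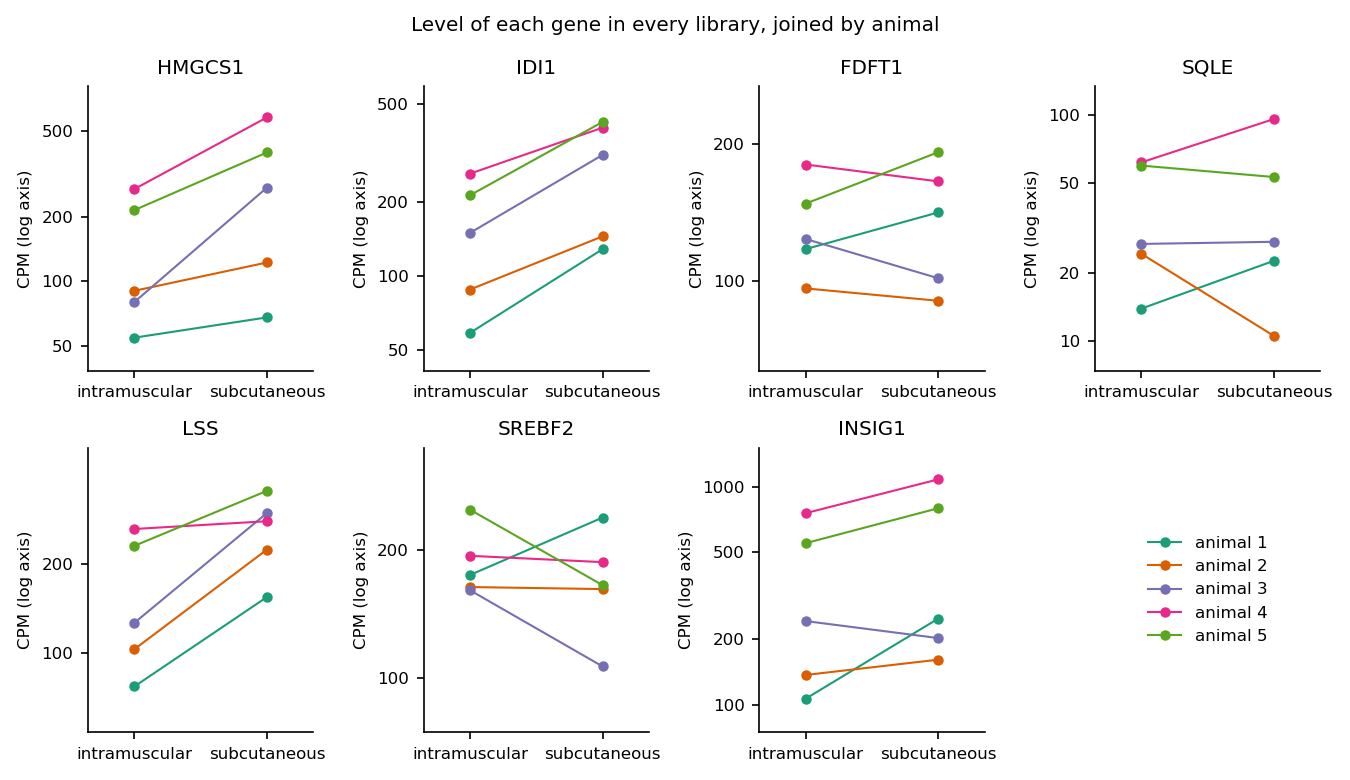
CPM on a log axis of each gene in each of the 10 libraries (points), intramuscular at the left and subcutaneous at the right, with a line joining the 2 libraries of an animal. The lines of HMGCS1, IDI1 and LSS run upward to the right in all 5 animals, while the lines of SQLE, FDFT1 and SREBF2 cross.

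HMGCS1 encodes the cytosolic HMG-CoA synthase, which condenses acetyl units early in the pathway (ENSBTAG00000011839, chromosome 20, 31431008 to 31456871, plus strand, coordinates as deposited). It measured 54.6, 90.2, 80.0, 269 and 214 CPM in intramuscular libraries 1 to 5, against 67.8, 122, 273, 580.0 and 398 CPM in subcutaneous libraries 1 to 5. Animals 4 and 5 were the highest in intramuscular fat and in subcutaneous fat, and the ranges of the depots overlapped. The highest library exceeded the lowest 4.92-fold within intramuscular and 8.55-fold within subcutaneous fat. Within animals the intramuscular level was 0.805, 0.738, 0.293, 0.463 and 0.539 of the subcutaneous level in animals 1 to 5. The depot means were 142 ± 94.2 and 288 ± 208 CPM in intramuscular and subcutaneous fat (SD, n = 5 each).

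IDI1 encodes isopentenyl-diphosphate delta isomerase, which interconverts the isoprenoid building blocks (ENSBTAG00000004075, chromosome 13, 46325275 to 46328399, plus strand). It measured 58.5, 87.8, 149, 260.0 and 212 CPM in intramuscular libraries 1 to 5, against 128, 145, 310.0, 400.1 and 422 CPM in subcutaneous libraries 1 to 5. The depots overlapped as groups, yet every intramuscular library was below the subcutaneous library of its own animal. The ratio of the intramuscular to the subcutaneous level was 0.456, 0.607, 0.482, 0.650 and 0.503 in animals 1 to 5, the narrowest spread of such ratios among the enzymes HMGCS1, IDI1 and LSS. The means were 153.6 ± 83.9 CPM in intramuscular and 281 ± 139 CPM in subcutaneous fat (SD, n = 5).

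FDFT1 encodes squalene synthase, the step that commits carbon to sterols (ENSBTAG00000012432, chromosome 8, 7591014 to 7617546, minus strand). It measured 117, 96.2, 124, 181 and 148 CPM in intramuscular libraries 1 to 5, against 142, 90.3, 101, 166 and 192 CPM in subcutaneous libraries 1 to 5. The depots covered nearly the same range, and the intramuscular level was lower in 2 of the 5 animals. The means were 133 ± 32.3 and 138 ± 42.9 CPM in intramuscular and subcutaneous fat (SD, n = 5 each).

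SQLE encodes squalene epoxidase, a rate-controlling oxygen-dependent step (ENSBTAG00000005498, chromosome 14, 15144664 to 15167777, minus strand). It measured 13.9, 24.4, 27.0, 61.9 and 59.9 CPM in intramuscular libraries 1 to 5, against 22.7, 10.6, 27.6, 96.4 and 53.3 CPM in subcutaneous libraries 1 to 5. Animals 4 and 5 were again the highest in each depot, and the depots overlapped. The intramuscular level was 0.614, 2.31, 0.978, 0.643 and 1.12 times the subcutaneous level in animals 1 to 5, higher in animals 2 and 5 and lower in the other 3. The means were 37.4 ± 22.0 CPM in intramuscular and 42.1 ± 34.1 CPM in subcutaneous fat (SD, n = 5).

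LSS encodes lanosterol synthase, which closes the sterol ring (ENSBTAG00000018936, chromosome 1, 145889102 to 145919613, minus strand). It measured 77.2, 103, 127, 262 and 230.2 CPM in intramuscular libraries 1 to 5, against 155, 224, 297, 279 and 353 CPM in subcutaneous libraries 1 to 5. Intramuscular libraries 1 to 3 lay below all 5 subcutaneous libraries, and libraries 4 and 5 lay within their range. In animal 4 the intramuscular level was 0.942 of the subcutaneous level, against 0.499, 0.461, 0.426 and 0.653 in animals 1, 2, 3 and 5. The means were 159.9 ± 81.6 CPM in intramuscular and 261 ± 75.4 CPM in subcutaneous fat (SD, n = 5).

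SREBF2 encodes the precursor of SREBP-2, the factor that drives the pathway's enzymes (ENSBTAG00000014265, chromosome 5, 112832407 to 112890177, plus strand). It measured 175, 164, 161, 194 and 249 CPM in intramuscular libraries 1 to 5, against 238, 162, 107, 187 and 165 CPM in subcutaneous libraries 1 to 5. The depots overlapped, and the intramuscular level was lower only in animal 1 among the 5. Its highest library exceeded its lowest 1.55-fold within intramuscular and 2.24-fold within subcutaneous fat. The mRNA level says nothing of how much SREBP-2 is cut and active.

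INSIG1 encodes the endoplasmic reticulum protein that retains SCAP (ENSBTAG00000001592, chromosome 4, 117125786 to 117138560, plus strand). It measured 107, 137, 242, 758 and 552 CPM in intramuscular libraries 1 to 5, against 249, 161, 202, 1083 and 798 CPM in subcutaneous libraries 1 to 5. In each depot the libraries of animals 4 and 5 exceeded each of the other 3, and the depots overlapped. The highest library exceeded the lowest 7.11-fold within intramuscular and 6.73-fold within subcutaneous fat. The means were 359 ± 284 CPM in intramuscular and 499 ± 417 CPM in subcutaneous fat (SD, n = 5), with SDs nearly as large as the means.

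Per kilobase of the deposited gene length, IDI1 and INSIG1 were the most abundant of the 7 and SQLE the least. IDI1 averaged 114 ± 62.1 CPM per kilobase in intramuscular and 208 ± 103 in subcutaneous fat, and INSIG1 averaged 104 ± 82.2 in intramuscular and 144 ± 121 in subcutaneous fat (SD, n = 5 each). FDFT1 followed at 63.4 ± 15.4 CPM per kilobase in intramuscular and 65.8 ± 20.4 in subcutaneous fat. LSS had 37.1 ± 18.9 and 60.7 ± 17.5, SREBF2 36.3 ± 6.96 and 33.1 ± 9.18, and HMGCS1 27.5 ± 18.3 and 56.0 ± 40.4 CPM per kilobase in intramuscular and subcutaneous fat. SQLE had 12.4 ± 7.26 CPM per kilobase in intramuscular and 13.9 ± 11.3 in subcutaneous fat. Neighbours in this order mostly lay within 1 SD of each other, so the order of IDI1 and INSIG1, and of LSS, SREBF2 and HMGCS1, is not fixed by these libraries.

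Tested over the 10 libraries without regard to the animal, 0 of the 7 genes passed an adjusted p of 0.05 in edgeR's quasi-likelihood test (Benjamini-Hochberg over all 12521 genes), where 12.2% of all genes passed in either direction. None of the 7 had an unadjusted p under 0.05 in that test, against 30.7% of all genes. DESeq2 and limma voom also called 0, with 2 and 1 of the 7 at an unadjusted p under 0.05. The authors' deposited table likewise lists adjusted p between 0.120 (LSS) and 0.925 (FDFT1) for the 7. The log2 fold changes were -1.03 ± 0.56 for HMGCS1, -0.87 ± 0.43 for IDI1, -0.71 ± 0.33 for LSS and -0.47 ± 0.62 for INSIG1 (± SE). They were -0.17 ± 0.53 for SQLE, -0.05 ± 0.23 for FDFT1 and 0.13 ± 0.21 for SREBF2. The edgeR adjusted p ranged from 0.165 for LSS to 0.901 for FDFT1. The median over the 7 was -0.47, against -0.04 over all genes tested. In this fit without a block the median moved with single libraries: it was -0.96 without intramuscular replicate 4 and 0.020 without subcutaneous replicate 4. Each of these runs kept the other library of animal 4, which was high in both depots for HMGCS1, IDI1, SQLE and INSIG1. Within animals 1 to 5 the median log2 difference of the 7 was -0.70, -0.23, -0.03, -0.52 and -0.53.

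With the animal as a block, 3 of the 7 genes were lower in intramuscular fat and 0 were higher by edgeR. Over all genes 15.0% were called in this fit, 6.96% lower and 8.09% higher. IDI1 fell by 0.90 ± 0.15 on the log2 scale (± SE, edgeR adjusted p = 0.00571), HMGCS1 by 0.90 ± 0.22 (adjusted p = 0.0272) and LSS by 0.81 ± 0.19 (adjusted p = 0.0245). All 3 were lower in 5 of 5 animals. INSIG1 was lower in 4 of 5 animals, with -0.45 ± 0.22 and an adjusted p of 0.182. SQLE, FDFT1 and SREBF2 had -0.01 ± 0.27, -0.03 ± 0.15 and 0.16 ± 0.18, with adjusted p of 0.979, 0.917 and 0.580. IDI1 kept its call without each animal in turn (edgeR adjusted p 0.0109 to 0.0318). HMGCS1 lost it without animals 2, 3, 4 and 5 (0.0511, 0.0907, 0.0723 and 0.0634) and LSS without animals 2 and 3 (0.0807 and 0.105).

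**Figure D2:**
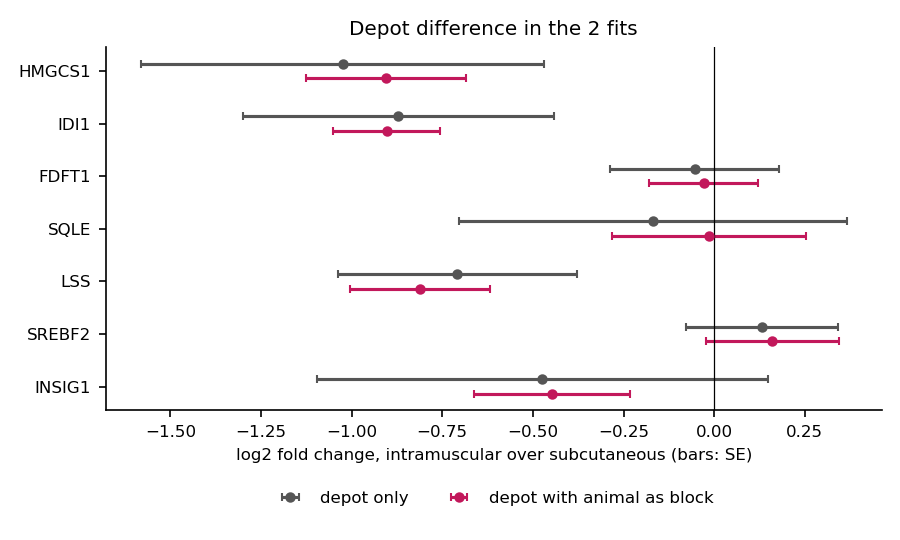
Log2 fold change of intramuscular over subcutaneous fat for each gene (points, bars are SE), from the fit with depot alone and the fit with the animal as a block. The estimates of HMGCS1 and IDI1 lie between -0.87 and -1.03 in both fits, while their SE shrinks from 0.56 to 0.22 and from 0.43 to 0.15.

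The depot difference of HMGCS1, IDI1 and LSS was set against the other 4 genes by ratios taken within each library, which need no scaling between libraries. HMGCS1, IDI1 and LSS were picked by their blocked calls in these same libraries. Their ratios to the other 4 therefore partly restate those calls. All 21 ratios between the 7 genes were compared between depots. The lowest raw p belonged to IDI1 over SQLE, whose log2 ratio averaged 2.06 ± 0.26 in intramuscular and 2.96 ± 0.70 in subcutaneous fat (SD, n = 5, two-sided exact permutation p = 0.0317, 0.278 after Benjamini-Hochberg adjustment over the 21 ratios). FDFT1 over LSS averaged -0.14 ± 0.49 in intramuscular and -0.92 ± 0.55 in subcutaneous fat (two-sided exact permutation p = 0.0397, adjusted 0.278), and was higher in intramuscular fat in 5 of 5 animals. Taken within animals, 7 of the 21 ratios had the same sign of difference in all 5. HMGCS1 over FDFT1, IDI1 over FDFT1, IDI1 over SREBF2 and LSS over SREBF2 were lower in intramuscular fat in 5 of 5 animals, and FDFT1 over LSS, FDFT1 over INSIG1 and SREBF2 over INSIG1 were higher. Each of the 7 had an exact sign-flip p of 0.0625, the smallest that 5 pairs allow, so the paired test could not pass the threshold. In the unpaired test none of the 21 passed after adjustment. The log2 ratio of HMGCS1 to IDI1 averaged -0.18 ± 0.41 in intramuscular and -0.18 ± 0.52 in subcutaneous fat (SD, n = 5, two-sided exact permutation p = 1).

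The spread between animals was then tested. In a fit with depot and animal as terms, edgeR's quasi-likelihood F-test called 2 of the 7 genes, INSIG1 and IDI1 (adjusted p = 0.0465 each), as different among the 5 animals. Over all genes 17 of 12521 were called, or 0.136%. At an unadjusted p under 0.05 the test passed 6 of the 7 genes, all but SREBF2, against 9.10% of all genes. The unadjusted p was 5.58e-05 for INSIG1, 6.31e-05 for IDI1, 0.000188 for HMGCS1, 0.00128 for SQLE, 0.00642 for LSS, 0.0187 for FDFT1 and 0.224 for SREBF2 (edgeR). The adjusted p of HMGCS1 was 0.0692. With so few libraries these calls were fragile: without animal 1 INSIG1 alone was called, and without animals 2, 3, 4 or 5 in turn 0 of the 7 were. DESeq2's likelihood ratio test called 5 of the 7, among 533 genes in all.

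Of the sum of squares of log2 CPM over the 10 libraries, the animal took 91.5% for INSIG1, 88.0% for FDFT1, 87.2% for SQLE, 77.8% for HMGCS1, 72.9% for IDI1, 56.7% for SREBF2 and 56.4% for LSS. The median over all genes tested was 39.5%. The animal term has 4 degrees of freedom, as has the remainder, and the depot term has 1. A large animal share is therefore expected without any animal effect. The animal share of LSS and SREBF2 exceeded that of 75.3% and 75.6% of all genes tested. For the rest of the 7 this figure ran from 91.5% (IDI1) to 99.3% (INSIG1). The depot took 34.5% for LSS, 25.8% for IDI1, 16.7% for HMGCS1 and at most 6.14% for the other 4. The remainder, which neither term took, was smallest for IDI1 at 1.23% and largest for SREBF2 at 37.2%. Libraries of an animal may also share handling, which cannot be told apart from the animal.

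**Figure D3:**
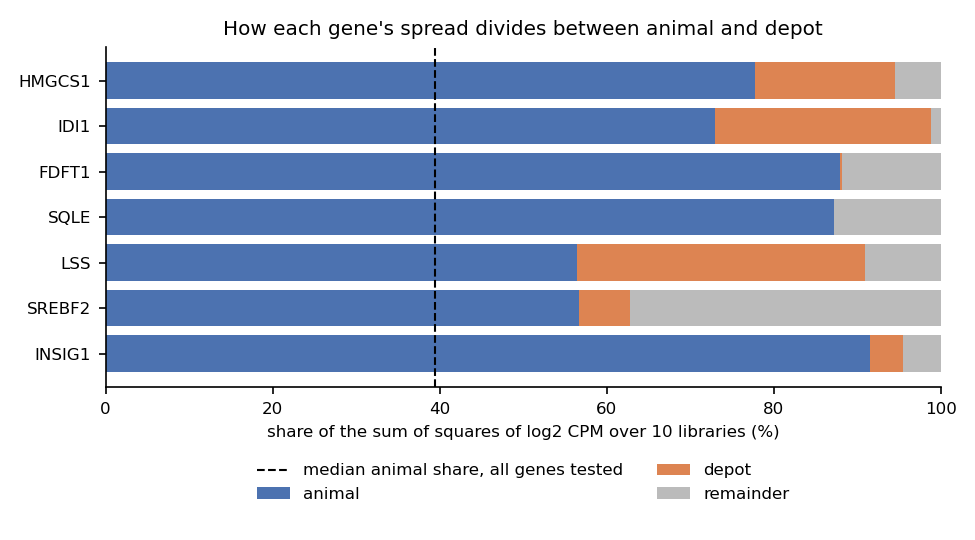
Share of each gene's sum of squares of log2 CPM over the 10 libraries taken by animal, by depot and by neither (bars, in %), with the median animal share of all tested genes as a dashed line at 39.5%. The animal share of all 7 genes lies to the right of that line.

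The mean of the 7 genes, as a log2 deviation from each gene's own mean, was -1.06, -0.70, -0.39, 0.64 and 0.47 in intramuscular libraries 1 to 5 and -0.34, -0.53, 0.03, 1.04 and 0.85 in subcutaneous libraries 1 to 5. In intramuscular fat the summed adipocyte markers were 5778, 14279, 12819, 18652 and 19579 CPM in the same libraries, so library 1 was lowest and libraries 4 and 5 highest in both measures. The summed striated muscle markers there were 1234, 428, 604, 217 and 288 CPM. In subcutaneous fat the adipocyte sums were 22249, 22889, 24077, 21725 and 27801 CPM, and library 4, the highest for the 7 genes, was the lowest for adipocyte markers. The muscle sums of subcutaneous libraries did not exceed 7.69 CPM, while INSIG1 varied 6.73-fold among them. With the block the median log2 fold change of the 11 adipocyte markers was -0.88. In the same fit HMGCS1 had -0.90, IDI1 -0.90 and LSS -0.81, while INSIG1 had -0.45, FDFT1 -0.03, SQLE -0.01 and SREBF2 0.16. The part of fat cell or muscle content in the depot difference was not tested. Without intramuscular replicates 1 and 3, which held the most muscle transcripts, the log2 fold changes without a block were -0.61 for HMGCS1, -0.60 for IDI1 and -0.40 for LSS, with edgeR adjusted p of 0.612, 0.497 and 0.529. With these libraries left out the median over the 7 was -0.063. Subcutaneous libraries 1 and 3 stayed in that fit, so the depots no longer held the same animals. Within animals 2, 4 and 5 the log2 difference was -0.44, -1.11 and -0.89 for HMGCS1. It was -0.72, -0.62 and -0.99 for IDI1 and -1.12, -0.09 and -0.62 for LSS.

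**Figure D4:**
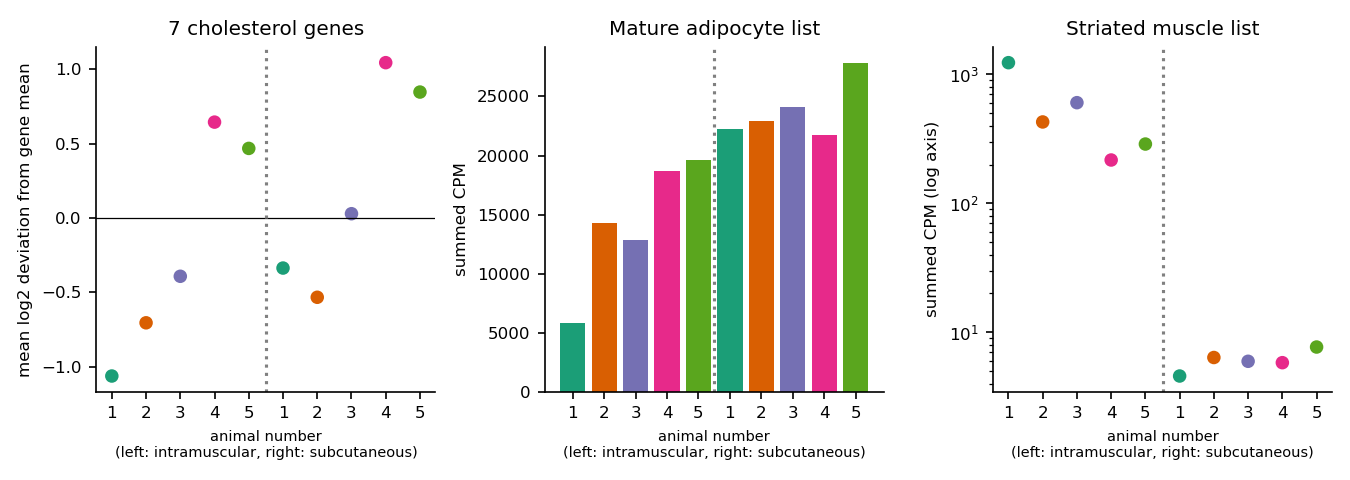
For each library, the mean log2 deviation of the 7 genes (left), the summed CPM of 11 adipocyte markers (middle) and the summed CPM of 9 striated muscle markers on a log axis (right), coloured by animal. Animals 4 and 5 lead the mean of the 7 genes in both depots. The summed adipocyte markers separate the intramuscular from the subcutaneous libraries and do not lead in animal 4 under the skin.

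How alike the 7 genes were within a depot was measured as the root-mean-square difference of log2 CPM over the 10 libraries, after removing the depot mean and scaling to unit SD, where 0 means the same profile. Among HMGCS1, IDI1, FDFT1, SQLE, LSS and INSIG1 the difference ran from 0.319 (SQLE and INSIG1) to 0.893 (FDFT1 and LSS). SREBF2 stood apart, at 0.936 from FDFT1 to 1.36 from HMGCS1. Over 12206 other genes with a symbol and at least 1 CPM, the median difference from the mean profile of the 7 was 1.37. The genes nearest to that mean profile were ACER3 at 0.141, HSP90AB1 at 0.196, MID1IP1 at 0.224, ACLY at 0.231 and SERPINH1 at 0.234. For INSIG1 the nearest were AACS (0.186) and ACLY (0.201), for LSS KDSR (0.189) and PGD (0.215), and for HMGCS1 DDX41 (0.220) and BZW1 (0.248). DCTN5 (0.227) and CCT4 (0.245) were nearest to IDI1, HSP90AB1 (0.252) and LRRC4C (0.274) to SQLE, KAT2A (0.243) and MLX (0.249) to FDFT1, and TAF6 (0.281) and EDN1 (0.293) to SREBF2. These are the closest of many candidates over 10 libraries and are given as a description.

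Of 46 other cholesterol genes listed by role, 45 had values and were tested. Without the block 0 were higher and 4 were lower in intramuscular fat (all genes: 6.75% higher and 5.49% lower), with a median log2 fold change of -0.29. With the animal as a block 1 was higher and 7 were lower (all genes: 8.09% higher and 6.96% lower), with a median of -0.26 against -0.01 over all genes. In the test among animals 0 of the 45 were called, and 14 of the 45 (31.1%) had an unadjusted p under 0.05, against 9.10% of all genes.

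In the mevalonate arm 0 of 6 other genes were called in either fit. MVD, which makes isopentenyl diphosphate, averaged 70.8 ± 33.4 CPM in intramuscular and 119 ± 87.7 CPM in subcutaneous fat (SD, n = 5), with a blocked log2 fold change of -0.62 ± 0.20 and an edgeR adjusted p of 0.0642. MVD was lower in 5 of 5 animals.

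In the sterol arm, which turns lanosterol into cholesterol, 0 of 11 genes were called without the block and 3 were lower with it. NSDHL, SC5D and MSMO1, all of which act on the lanosterol-derived ring, fell by 0.73 ± 0.21, 0.49 ± 0.14 and 0.52 ± 0.15 on the log2 scale (± SE) with edgeR adjusted p of 0.0467, 0.0472 and 0.0492. Each was lower in 5 of 5 animals. These calls lie just under the threshold: SC5D had 0.0811 to 0.142 when any animal was left out, while MSMO1 and NSDHL lost their calls without animals 1, 2, 3 and 5 (0.0869 to 0.174) and 1, 2 and 3 (0.0877 to 0.172). TM7SF2, a sterol reductase, averaged 33.1 ± 8.68 CPM in intramuscular and 67.3 ± 33.4 CPM in subcutaneous fat (log2 fold change -1.02 ± 0.31, edgeR adjusted p = 0.0501, 0.0549 with the block). DESeq2 called it (adjusted p = 0.0158), as did edgeR with no filter on low counts (0.0498). Without subcutaneous replicate 1 it had an edgeR adjusted p of 0.0161, without subcutaneous replicate 4 0.0440 and without intramuscular replicate 4 0.0458.

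Among the 12 genes with values listed under sterol sensing and control, NR1H3 was lower in both fits and none was higher. NR1H3 encodes LXR alpha, a nuclear receptor for oxysterols, and measured 67.3, 58.2, 46.6, 83.2 and 72.8 CPM in intramuscular libraries 1 to 5, against 97.8, 88.0, 132, 88.5 and 155 CPM in subcutaneous libraries 1 to 5. The depots of NR1H3 did not overlap. Of all genes, 5.04% were apart in this direction and 7.85% in the other, while 0 of the 7 genes were apart in either. NR1H3 fell by 0.77 ± 0.21 on the log2 scale (edgeR adjusted p = 0.0303). It was past the threshold in the fits without intramuscular replicates 4 and 5 and subcutaneous replicates 1, 2 and 4 only, with an edgeR adjusted p of 0.0576 to 0.0798 in the other 5. With the block its adjusted p was 0.0383, and 0.0856, 0.136 and 0.103 without animals 2, 3 and 5. SCAP, the SREBP escort, averaged 249.7 ± 78.0 CPM in intramuscular and 365 ± 119.7 CPM in subcutaneous fat (-0.55 ± 0.28, edgeR adjusted p = 0.201). SREBF1, the gene of the fat synthesis factor SREBP-1, averaged 448 ± 147 CPM in intramuscular and 584 ± 309 CPM in subcutaneous fat (-0.38 ± 0.34, edgeR adjusted p = 0.465).

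Of the 10 uptake and trafficking genes reported, NPC2 was lower in both fits. NPC2, which carries cholesterol inside lysosomes, averaged 191 ± 45.1 CPM in intramuscular and 330.1 ± 63.6 CPM in subcutaneous fat (SD, n = 5). It fell by 0.79 ± 0.20 on the log2 scale (edgeR adjusted p = 0.0263). NPC2 lost the call without intramuscular replicates 3 and 5 and subcutaneous replicate 3 (0.0566, 0.0507 and 0.0629). With the block its adjusted p was 0.0244, and 0.105 and 0.058 without animals 3 and 5. VLDLR, the very-low-density lipoprotein receptor, was the gene of the list that rose with the block, by 0.53 ± 0.14 (edgeR adjusted p = 0.0350). It measured 169, 106, 181, 84.2 and 66.0 CPM in intramuscular libraries 1 to 5, against 96.0, 84.3, 111, 67.2 and 46.9 CPM in subcutaneous libraries 1 to 5. VLDLR was higher in intramuscular fat in 5 of 5 animals and, unlike the 7 genes, lowest in animals 4 and 5. Its call was lost when any animal was left out (0.0564 to 0.136). The highest intramuscular levels of VLDLR were in libraries 3 and 1, those with the most muscle transcripts. Without these libraries and without the block its log2 fold change was 0.077 (edgeR adjusted p = 0.902), against 0.58 (0.205) with all 10. That fit kept subcutaneous libraries 1 and 3, the highest of their depot, so the depots no longer held the same animals. Within animals 2, 4 and 5 the log2 difference of VLDLR was 0.33, 0.33 and 0.49.

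Of the 6 storage and efflux genes with values, APOE and CYP27A1 were lower in both fits. APOE encodes an apolipoprotein that carries cholesterol out of macrophages and fat cells. It measured 370.2, 559, 699, 693 and 689 CPM in intramuscular libraries 1 to 5, against 839.6, 983, 2055, 2073 and 2964 CPM in subcutaneous libraries 1 to 5. The depots of APOE did not overlap. It fell by 1.57 ± 0.34 on the log2 scale (edgeR adjusted p = 0.0117). CYP27A1, a sterol hydroxylase that makes an oxysterol, averaged 102 ± 23.3 CPM in intramuscular and 296 ± 153 CPM in subcutaneous fat and fell by 1.54 ± 0.32 (edgeR adjusted p = 0.00939). ABCA1, the cholesterol exporter, averaged 2.62 ± 0.71 CPM in intramuscular and 1.30 ± 0.83 CPM in subcutaneous fat (SD, n = 5). Its blocked log2 fold change was 1.21 ± 0.58, with an edgeR adjusted p of 0.185 that did not pass. The ABCA1 values rest on few reads, 6 to 45 counts per library. Macrophages also express APOE and CYP27A1, and 4 of the 7 macrophage markers with values were lower in intramuscular fat. Their sum ran from 158 to 297 CPM in intramuscular and from 156 to 815 CPM in subcutaneous fat. Subcutaneous library 5, with the highest macrophage sum, had 2964 CPM of APOE, the highest APOE level measured, and 336 CPM of CYP27A1. Subcutaneous library 3, with the lowest macrophage sum of its depot, had 2055 CPM of APOE and 525 CPM of CYP27A1, the highest CYP27A1 level measured. The part of macrophage content in these differences was not tested. Without intramuscular replicates 1 and 3, 0 of the 45 genes were called, with edgeR adjusted p of 0.0864 for APOE and 0.0972 for CYP27A1. Subcutaneous libraries 1 and 3 stayed in that fit.

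**Figure D5:**
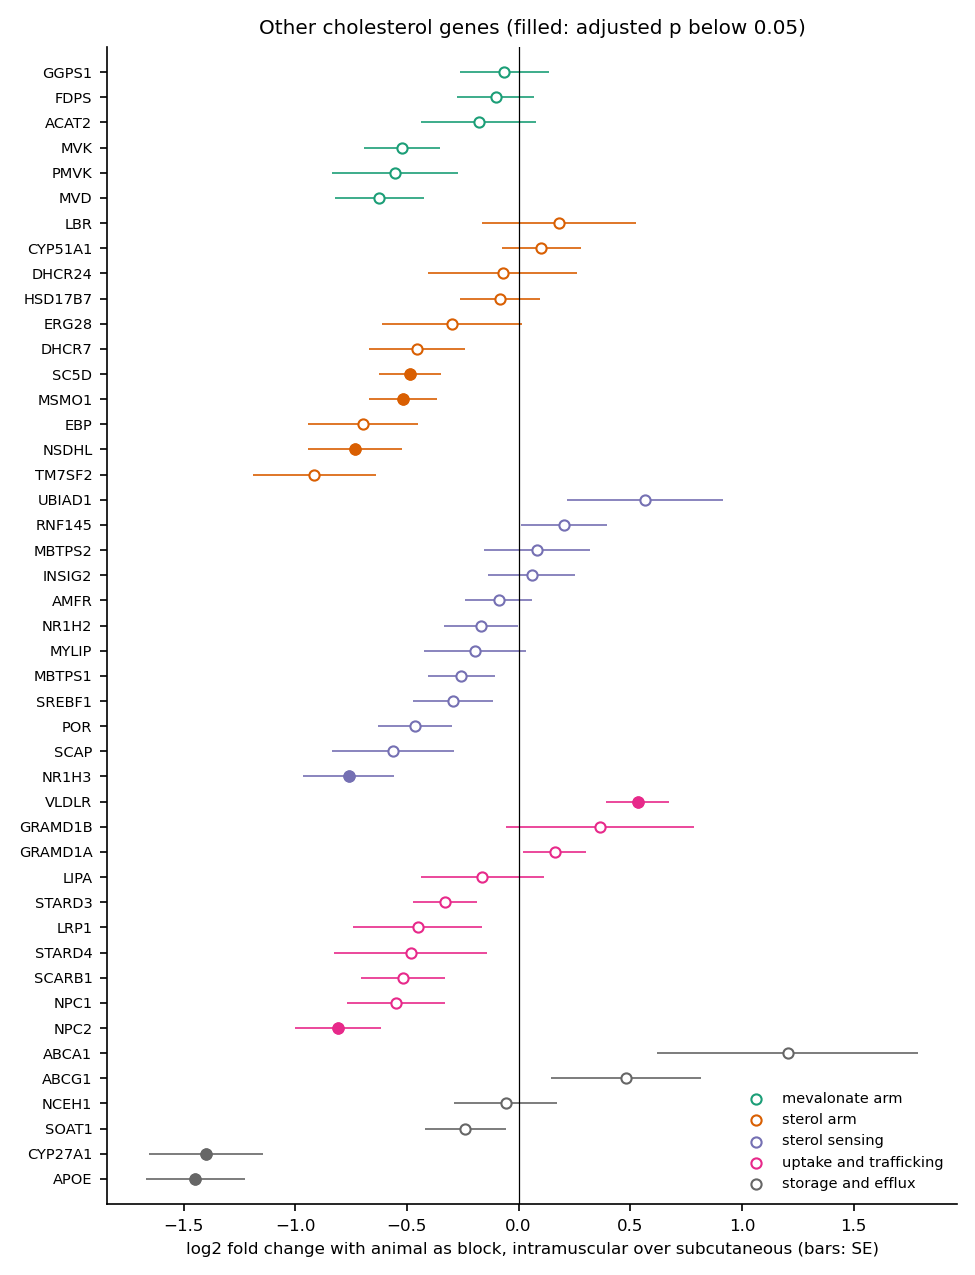
Log2 fold change of intramuscular over subcutaneous fat with the animal as a block for 45 other cholesterol genes grouped by role (points, bars are SE, filled points have an adjusted p below 0.05). APOE and CYP27A1 lie below -1, VLDLR is the filled point above 0, and ABCA1 lies at 1.21 with an open point.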

How the data were processed

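RNA was isolated with TRIzol and columns, and random-primed libraries with a dUTP second strand were sequenced in pairs, per the labels' protocols. Reads were handled with STAR 2.7.11a, Trimmomatic 0.39, DESeq2 1.42.0 and featureCounts 2.0.2, named without order in the submitters' processing notes. For the build behind the coordinates, and for whether counting used strand, the entry is "not given in the sources used here". None of the 7 genes overlaps another listed gene. The authors deposited raw counts for each gene in each library (12674 genes). They also deposited an average count per depot, a base mean that is a normalised signal, a log2 fold change with its score, and p-values. Their adjusted p equals a Benjamini-Hochberg adjustment over the listed genes in 100% of genes (tolerance 1%).

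The main test was the quasi-likelihood test of edgeR 4.0.16 in R 4.3.3 (TMM, filterByExpr on depot, no block, two-sided). It kept 12521 genes and removed 153, with Benjamini-Hochberg adjustment at 0.05, and was run on simulated data. The simulated depot data held no differences among animals, so that run does not show how the test performs on these libraries. DESeq2 1.42.0 and limma 3.58.1 were alternatives, beside other scalings, no filter and left-out libraries. Log2 CPM used a prior count of 2. The SE of an edgeR log2 fold change was its absolute value divided by the square root of the quasi-likelihood F. Titles number the libraries 1 to 5 in each depot and the protocols name 5 heifers, so equal numbers were read as 1 animal. Across genes, the residuals of equal-numbered libraries had r of 0.102, 0.181, 0.176, 0.161 and 0.237 for numbers 1 to 5, and each library correlated best with its own number. The members and lists were chosen with earlier results of these data known. The test among animals, the ratios and the alternatives of the blocked fit were chosen after seeing the data. Named were the 7 genes, pathway genes with values and nearest genes by profile (5 to the mean profile, 2 to each gene). CH25H was not analysed here, and some genes of the pathway are not reported here.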

Additional observations from a re-analysis of the deposited data

Results flagged for a closer look

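For 104 groups of 5 libraries (52 genes in 2 depots), the highest or lowest library was set against its nearest neighbour, and 6 stood apart with a gap of over 0.71 of the group's range. Chance flags about 1 in 20 groups. None of the 6 belonged to HMGCS1, IDI1, FDFT1, SQLE, LSS, SREBF2 or INSIG1. MVD reached 269 CPM in subcutaneous replicate 5, where the next library had 118 CPM. EBP, a sterol isomerase, reached 227.7 CPM in the same library, with 81.9 CPM in the next. LIPA, the lysosomal lipase, also stood apart there at 222 CPM, above 117 CPM in the next library. NPC1, the lysosomal exporter, reached 232 CPM in subcutaneous replicate 4, with 139 CPM in the next library. NPC2 reached 440.5 CPM in subcutaneous replicate 3, against 328 CPM in the next. INSIG2 was lowest in intramuscular replicate 1, at 9.92 CPM, with 16.3 CPM in the next.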

How the results depend on the processing

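Without a block, 0 of the 7 genes were called under every alternative run, left-out libraries included. The replicate block gave 3 lower, with HMGCS1 at -0.90, IDI1 at -0.90 and LSS at -0.81, and for the 45 pathway genes 1 higher and 7 lower. It changed no call of FDFT1, SQLE, SREBF2 or INSIG1. The median of the 7 was -0.96 to 0.020 with 1 library left out and -0.063 without intramuscular replicates 1 and 3. That pair left out gave 0 lower pathway genes and 306 higher and 67 lower genes in all. With 1 library left out, lower pathway genes numbered 2 to 6, and all genes 494 to 1008 higher and 263 to 887 lower. DESeq2 called 1369 higher and 1171 lower. Library totals alone called 330 lower, and moved the median of all genes to 0.13, against -0.04. FDFT1 was 0.12 with library totals, 0.029 without the pair and -0.19 to 0.094 with 1 library left out. SQLE was 0.017 by voom, 0.20 without the pair and -0.44 to 0.39 with 1 left out. INSIG1 ran from -0.96 to 0.027, positive without subcutaneous replicate 4. With the block and 1 animal left out, 1 to 3 of the 7 were lower, 2 to 9 pathway genes were lower and 0 higher, and all genes numbered 447 to 1013 higher and 225 to 852 lower (562 higher and 368 lower without animal 2, 421 lower without animal 5). With the block, library totals gave 3 lower pathway genes and 478 lower genes, and DESeq2 1689 higher and 1383 lower. FDFT1 with the block was 0.14 by totals and -0.11 to 0.059 with 1 animal left out (0.031 without animal 1). SQLE with the block was 0.16 by totals, 0.000881 by DESeq2 and -0.31 to 0.16 with 1 animal left out (0.15 without animal 1). Among animals, library totals called 0 of the 7, DESeq2 5, and 0 to 1 with 1 animal left out. DESeq2 called 10 pathway genes and 533 genes there, voom 33 genes, and edgeR 3 to 14 genes with 1 animal left out. Fewer samples cost power by construction. A library left out of 1 depot also broke the pair of its animal in the fits without a block. Otherwise the cause was not tested.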

Other observations

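The 17 genes that differed among animals by edgeR with an adjusted p under 0.05 included BOLA-DQA1, BOLA, JSP.1 and BLA-DQB of the bovine major histocompatibility complex, named here after their values were seen. The animal took 98.9%, 98.7%, 96.7% and 95.5% of the sum of squares of BOLA-DQA1, BOLA, JSP.1 and BLA-DQB, against 91.5% for INSIG1 and 72.9% for IDI1. INSIG1 and IDI1 ranked 15 and 16 of 12521 by the p of that test, and HMGCS1 ranked 34. Transcripts of other members of the pathway followed the mean profile of the 7 genes to different degrees. CYP51A1, the lanosterol demethylase, lay at a root-mean-square difference of 0.268 and SREBF1 at 0.430, while SREBF2 lay at 1.15 and VLDLR, at 1.78, was the farthest of the 52 genes (the 7 and 45 others).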
